A study of Mus musculus with 10 samples.

Results

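Genes that mark the projection neurons of the striatum were followed in RNA from the mouse preoptic region. They comprise 9 genes of the D1 and D2 dopamine receptor pathways: Drd1, Drd2, Adora2a, Gpr6, Ppp1r1b, Arpp21, Scn4b, Bcl11b and Rgs9. A probe set was taken for a member if the probe annotation named that gene and no other, which gave 18 of the 45101 probe sets on the array, for 8 of the 9 genes. No probe set named Adora2a alone, so it has no value here. The members had been chosen for their pattern in these same data, so their differences between the groups are given as a description without a test. Mice of the DBA1/lacJ strain had all been injected intraperitoneally with 120 µg/kg lipopolysaccharide (LPS), a component of the outer membrane of bacteria that triggers fever, and brains were taken after 5 h. Of 10 mice, 5 were labelled as mPGES-1 knockouts (KO) and 5 as wild-type (WT), with 1 array for each mouse. The enzyme mPGES-1, encoded by Ptges, makes prostaglandin E2 during inflammation. The preoptic tissue was cut out by laser capture microdissection and its RNA was amplified in 2 rounds. The sources used here give neither age and sex nor the deleted part of Ptges. Mice without LPS were not analysed here. Precision is set by having 5 arrays in each group.

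Medium spiny projection neurons are the principal cells of the striatum, which borders the preoptic region, and release GABA. One class carries the dopamine D1 receptor, which raises cyclic AMP, together with substance P and dynorphin. The other carries the dopamine D2 receptor, which lowers cyclic AMP, together with the adenosine receptor encoded by Adora2a, GPR6 and enkephalin. Protein kinase A, the kinase that cyclic AMP switches on, phosphorylates DARPP-32 (gene Ppp1r1b) and ARPP-21 (gene Arpp21) in these cells. Several of these genes are also active elsewhere in the brain, among them Bcl11b and Arpp21 in the cerebral cortex.

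Promoter sequences of Drd1, Scn4b and Bcl11b, which varied together across arrays, and of Gpr6, which followed them less closely, are printed so that their starts can be compared. They are from RefSeq (GRCm38.p6), 250 bases before to 50 after a transcript start, 5′ to 3′ on the strand of the gene, and 7 of the 9 members had at least 1 entry. Capitals mark matches, on either strand, to any of 4 motifs. The cyclic AMP response element was searched as TGACGTCA. The GC box, bound by factors such as Sp1, was searched as GGGCGG. For the CCAAT box the letters of its name were used, and for the TATA box those of TATAAA. The regions are chr13:54055609-54055908 on the minus strand for Drd1 (the first of 2 entries), chr9:45138374-45138673 on the plus strand for Scn4b, chr12:108003365-108003664 on the minus strand for Bcl11b and chr10:41072241-41072540 on the minus strand for Gpr6.
Drd1: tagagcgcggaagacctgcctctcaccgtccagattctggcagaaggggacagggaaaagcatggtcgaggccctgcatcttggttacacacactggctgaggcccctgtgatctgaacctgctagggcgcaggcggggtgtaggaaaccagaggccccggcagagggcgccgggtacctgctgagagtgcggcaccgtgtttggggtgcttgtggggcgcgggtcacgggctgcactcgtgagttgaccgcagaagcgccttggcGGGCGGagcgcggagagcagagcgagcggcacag
Scn4b: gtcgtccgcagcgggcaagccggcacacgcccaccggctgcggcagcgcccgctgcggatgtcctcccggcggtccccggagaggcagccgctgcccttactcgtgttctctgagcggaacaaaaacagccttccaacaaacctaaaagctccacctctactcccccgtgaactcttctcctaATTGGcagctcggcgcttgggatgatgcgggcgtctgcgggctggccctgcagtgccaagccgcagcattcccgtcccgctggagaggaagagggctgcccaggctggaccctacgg
Bcl11b: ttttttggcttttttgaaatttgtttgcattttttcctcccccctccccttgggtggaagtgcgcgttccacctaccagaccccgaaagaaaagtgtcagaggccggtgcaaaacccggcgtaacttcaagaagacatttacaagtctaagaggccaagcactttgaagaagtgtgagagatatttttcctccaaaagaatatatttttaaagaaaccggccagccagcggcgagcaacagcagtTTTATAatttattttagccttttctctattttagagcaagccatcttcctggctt
Gpr6: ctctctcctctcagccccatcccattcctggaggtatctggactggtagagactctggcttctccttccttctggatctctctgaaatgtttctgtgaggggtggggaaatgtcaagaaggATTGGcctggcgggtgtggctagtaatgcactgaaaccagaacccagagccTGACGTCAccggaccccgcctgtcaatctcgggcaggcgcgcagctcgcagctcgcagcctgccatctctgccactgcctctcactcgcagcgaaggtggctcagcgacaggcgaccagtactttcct
The Gpr6 promoter held the full cyclic AMP response element, found in 1.79% of all 32851 promoters of this length, and a CCAAT box on the other strand. It was the only one of the 16 member promoters with that element. The Drd1 promoter held a GC box (35.7% of promoters), Scn4b a CCAAT box on the other strand (37.4%) and Bcl11b a TATA box sequence on the other strand (13.6%), so these 3 had no motif of the 4 in common. Arpp21 had 9 entries, of which 6 held a CCAAT box and 0 any of the other 3 motifs. Entries 3, 8 and 9 overlap and hold the same CCAAT box, so the 6 are not separate sites. A match is a description of the letters in this window and says nothing about binding.

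Of the arrays, KO replicate 3 stood apart in several measures. One was a summed signal of choroid plexus and ependymal markers of 6499, against 365.1 to 855.1 on the other 9 arrays. Of these markers 5 of 5 had a probe set, Ttr being the brightest and Folr1, Kl and Foxj1 dim. Mef2c, a transcription factor gene picked out after its values were seen, was at 6322 there and between 571 and 1962 on the others, and Itpka, a kinase gene of dendritic spines, at 737 there and between 39.6 and 186 on the others. The same array and WT replicates 2 and 5 lacked the poly-A control RNA signal that the other 7 had. In those 7 arrays alone the log2 differences were 1.33 for Drd1, 0.70 for Drd2, 0.83 for Gpr6, 0.20 for Ppp1r1b, 1.76 for Arpp21, 1.596 for Scn4b, 1.17 for Bcl11b and -0.46 for Rgs9, to be set against the values from all 10 arrays. Markers of preoptic and hypothalamic neurons, 10 of 10 with a probe set and 3 of these (Hmx2, Sim1 and Hcrt) dim, summed to between 2347 and 3475 on arrays labelled KO and between 2554 and 3940 on arrays labelled WT, with Gal and Oxt among the bright ones. The targeted gene did not follow its label: Ptges probe set 1439747_at lay between 17.5 and 76.1 on arrays labelled KO and between 1.51 and 9.33 on arrays labelled WT. The other 2 Ptges probe sets overlapped between the groups. Whether any of the 3 lies in the deleted part is not known here, so the groups are called by their labels. In bulk tissue of this kind, fewer cells of a type and less RNA per cell cannot be told apart.

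Signals are the deposited intensities, on a linear scale, and differences are of log2(signal + 16), labelled KO minus labelled WT, which understates the change of dim genes. The dopamine receptor genes come first. Drd1, the D1 receptor, gave signals of 278, 207, 251, 46.4 and 45.8 in KO replicates 1 to 5 (probe set 1455629_at). It gave 21.4, 91.0, 60.03, 28.9 and 52.4 in WT replicates 1 to 5. KO replicates 1, 2 and 3 lay above every WT array, while KO replicates 4 and 5 lay within the WT range. The mean was 166 ± 112 (SD, n = 5) in mice labelled KO and 50.7 ± 27.6 (SD, n = 5) in mice labelled WT, and the fitted log2 difference was 1.24 (SE 0.44), and 1.02 without KO replicate 3. Drd2, the D2 receptor, was dim and below the filter on dim genes, a mean log2 value of 5.83. Its signals were 23.9, 37.7, 15.2, 18.5 and 10.8 in KO replicates 1 to 5, against 5.28, 33.2, 1.32, 17.8 and 24.8 in WT replicates 1 to 5. The groups overlapped almost completely, at a log2 difference of 0.26 (SE 0.31), and leaving out 1 array moved it between 0.06 (without WT replicate 3) and 0.44 (without WT replicate 2). It was 0.78 (SE 0.70) with 1 in place of the added 16 and 0.09 (SE 0.12) with 64. With quantile normalization it was 0.49, and 0.54 with each array centred on its median.

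Another member of the D2 class, Gpr6, encodes an orphan receptor that couples to the stimulatory G protein. Its signals were 755, 938, 569, 529 and 888 in KO replicates 1 to 5 (probe set 1440148_at). In WT replicates 1 to 5 they were 413, 370, 689, 261 and 512. Only 1 WT array, replicate 3, lay above the lowest KO array. The mean was 736 ± 184 (SD, n = 5) in mice labelled KO and 449 ± 161 (SD, n = 5) in mice labelled WT, with a log2 difference of 0.73 (SE 0.24). Its SD among KO arrays was 0.36 on the log2 scale, the smallest of the 8 members, and KO replicates 2 and 5 were its highest arrays.

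The phosphoproteins of the cyclic AMP pathway differed in how well they were measured. Ppp1r1b, encoding the protein phosphatase-1 inhibitor DARPP-32, was at percentile 19.9 of mean signal among all probe sets. Its signals were 11.9, 27.6, 29.0, 2.84 and 2.62 in KO replicates 1 to 5, against 14.0, 3.94, 2.33, 4.16 and 3.11 in WT replicates 1 to 5. KO replicates 2 and 3 were highest, though all 10 values were at the low end of the array, and the log2 difference was 0.44 (SE 0.28). It was 0.27 without KO replicate 3, 0.29 without KO replicate 2, 0.98 with a pseudocount of 1 and 0.17 with one of 64. Arpp21, encoding the cyclic AMP-regulated phosphoprotein ARPP-21, had signals of 1126, 1067, 1764, 149 and 480 in KO replicates 1 to 5 (probe set 1424248_at). In WT replicates 1 to 5 they were 293, 271, 141, 79.1 and 99.1. Of the KO arrays 4 lay above every WT array, and KO replicate 4 lay within the WT range. The mean was 917 ± 626 (SD, n = 5) in mice labelled KO and 177 ± 98.8 (SD, n = 5) in mice labelled WT. The log2 difference was 2.04 (SE 0.51), the highest positive one among all 10916 genes tested, and 1.71 without KO replicate 3. With the mean over the 5 Arpp21 probe sets it was 0.44.

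Rgs9 encodes a GTPase-activating protein of G protein signalling, whose long form ends dopamine and opioid receptor signals in the striatum. Its signals were 304, 138, 235, 193 and 174 in KO replicates 1 to 5 (probe set 1418691_at). In WT replicates 1 to 5 they were 308, 155, 241, 276 and 263. The groups overlapped, with 208.7 ± 63.9 (SD, n = 5) in mice labelled KO and 248 ± 57.7 (SD, n = 5) in mice labelled WT. The log2 difference of -0.25 (SE 0.22) was the only one below 0 among the 8 member genes, and it was 0.03 with each array centred on its median. Leaving out 1 array moved it between -0.12 (without KO replicate 2) and -0.40 (without WT replicate 2), with -0.39 without KO replicate 1.

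Scn4b encodes the beta-4 subunit of voltage-gated sodium channels, abundant in medium spiny neurons. Its signals were 1025, 894, 1775, 102 and 145 in KO replicates 1 to 5 (probe set 1434008_at). In WT replicates 1 to 5 they were 216, 196, 49.2, 102 and 67.4. KO replicates 1, 2 and 3 lay above every WT array, and KO replicates 4 and 5 lay inside the WT range. The mean was 788 ± 694 (SD, n = 5) in mice labelled KO and 126 ± 75.4 (SD, n = 5) in mice labelled WT, with a log2 difference of 2.00 (SE 0.63), and of 1.54 without KO replicate 3.

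Bcl11b encodes CTIP2, a zinc finger transcription factor needed for medium spiny neurons to mature. Its signals were 1155, 521, 1591, 75.0 and 215 in KO replicates 1 to 5 (probe set 1435227_at). In WT replicates 1 to 5 they were 285, 265, 107, 75.8 and 169.9. KO replicate 4 was the lowest of all 10 arrays and KO replicate 3 the highest. The mean was 712 ± 644 (SD, n = 5) in mice labelled KO and 181 ± 92.9 (SD, n = 5) in mice labelled WT. The log2 difference was 1.38 (SE 0.60), 0.93 without KO replicate 3 and 0.84 with the mean over its 4 probe sets.

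**Figure D1:**
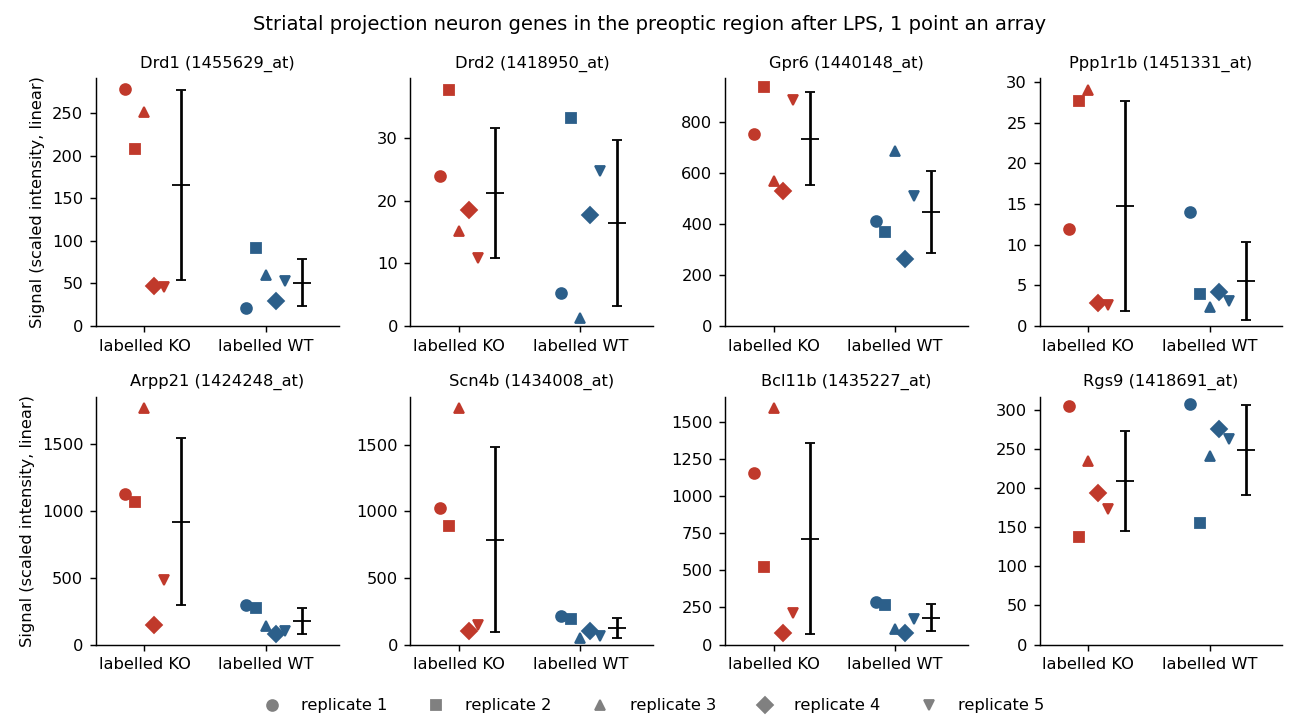
Signal of the 8 members with a probe set (vertical axes, scaled intensity on a linear scale) on arrays labelled KO (red) and WT (blue), 1 point an array with a symbol for each replicate number; black dashes and bars are group means and SD (n = 5 each). For Drd1, Scn4b and Bcl11b, KO replicates 1, 2 and 3 lie above all 5 WT arrays and KO replicates 4 and 5 do not.

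Over the 6 members above the filter, 5 were higher in mice labelled KO and 1 was lower, where 49.1% of all genes tested were higher. The median log2 difference of the 6 was 1.31, against -0.01 over all genes tested. Over all 8 members with a probe set, the dim Drd2 and Ppp1r1b included, it was 0.98. A log2 difference of at least 1 was reached by 4 of the 6 (Drd1, Arpp21, Scn4b and Bcl11b), and by 0.376% of all genes tested. Of the 6, 0 had groups that did not overlap, which 4.68% of genes did. These shares describe members that were picked on this contrast and say nothing further about them. Centring each array on its median moved the median difference of all genes tested to 0.27, and the median of the 6 members to 1.59 with it.

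The spread within the groups differed between members. On the log2(signal + 16) scale the SD among KO arrays was 1.75 for Scn4b, 1.70 for Bcl11b, 1.35 for Arpp21 and 1.14 for Drd1. Among WT arrays it was 0.81 for Scn4b, 0.74 for Bcl11b, 0.76 for Arpp21 and 0.61 for Drd1. Rgs9 had an SD of 0.40 among KO arrays and 0.36 among WT arrays, and Gpr6 had 0.36 among KO arrays and 0.50 among WT arrays. The 4 members with a difference of at least 1 were also the 4 that varied most among KO arrays.

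Where a gene had several probe sets, they did not all show the same difference. Of the 18 probe sets, 13 were higher in mice labelled KO and 5 lower, with a median log2 difference of 0.39. Of these 18, 0 had groups that did not overlap, where 3.22% of all probe sets did. For Drd1 the dimmer probe set 1456051_at had signals of 70.6, 73.9, 165, 35.5 and 26.5 in KO replicates 1 to 5, and 9.30, 48.7, 61.8, 47.8 and 40.7 in WT replicates 1 to 5. KO replicates 1, 2 and 3 were again its 3 highest arrays, at a log2 difference of 0.55 (SE 0.39). For Bcl11b probe set 1452966_at had signals of 134, 79.0, 286, 30.2 and 54.2 in KO replicates 1 to 5, against 19.6, 23.3, 18.5, 53.4 and 33.9 in WT replicates 1 to 5, a log2 difference of 1.28 (SE 0.41). Here 4 KO arrays lay above every WT array. The remaining Bcl11b probe sets were dim, at 0.50 (1438784_at) and 0.21 (1450339_a_at).

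Arpp21 was the member whose probe sets differed most from each other. The second brightest, 1419028_at, was at 0.33 (SE 0.29), with KO replicate 3 at 217 and the other 9 arrays between 45.8 and 104. The 3 others were dim, at log2 differences of -0.19, -0.34 and 0.34. Which transcripts of Arpp21 each probe set reads is not given in the sources used here. All 3 Rgs9 probe sets were lower in mice labelled KO, at -0.25, -0.08 and -0.56 on this scale, and the probe sets at -0.08 and -0.56 were dim.

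**Figure D2:**
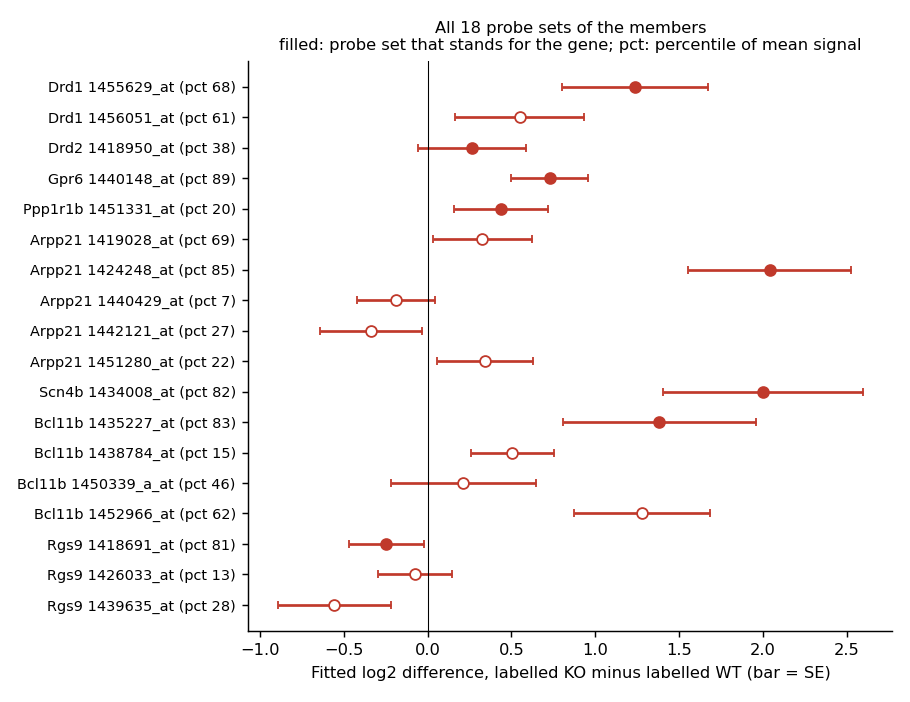
Fitted log2 difference (horizontal axis, labelled KO minus labelled WT, bars are SE, n = 5 arrays a group) of all 18 probe sets of the members; filled circles mark the probe set that stands for its gene, and pct is the percentile of its mean signal among all probe sets. The probe set 1424248_at of Arpp21 stands at 2.04 while its other 4 lie between -0.34 and 0.34.

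Array by array, Arpp21, Scn4b, Bcl11b and Drd1 varied together. After the group means were removed, the 6 pairs among these 4 genes had Pearson r between 0.71 and 0.94 over 10 arrays and Spearman rho between 0.60 and 0.95. The closest pair was Arpp21 and Bcl11b, with r = 0.94. Without KO replicate 3 the 6 values were between 0.65 and 0.93 over 9 arrays. Within the 7 arrays with spike-in signal they were between 0.66 and 0.96, and the 3 arrays without it were too few for a value. Leaving out the 2 arrays farthest from the median of the first gene of a pair gave r between 0.39 and 0.95 over 8 arrays. The group means subtracted there were those of all 10 arrays and were not taken anew over the 8. The lowest were the 3 pairs with Drd1 (0.39, 0.48 and 0.55), for which KO replicates 4 and 5 were left out. KO replicates 1, 2 and 3 then all lie above the subtracted mean, so part of the difference between the groups enters these 3 values. They can therefore be too high, and the co-variation of Drd1 rests at least in part on KO replicates 4 and 5. All these coefficients come from the same arrays and share each array's dissection, amplification and scaling. They are given without p-values because the members were chosen for this pattern.

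The dim Ppp1r1b varied with the same genes, at r = 0.88 with Scn4b, 0.78 with Arpp21, 0.74 with Bcl11b and 0.54 with Drd1. Gpr6 and Rgs9 followed them less closely over the 10 arrays. Gpr6 had r between -0.15 and 0.20 with Drd1, Arpp21, Scn4b and Bcl11b, and Rgs9 had r between -0.01 and 0.26 with them. Spearman rho was between -0.13 and 0.09 for Gpr6 and between 0.21 and 0.53 for Rgs9. Without KO replicate 3, r was between 0.01 and 0.40 for Gpr6 and between -0.10 and 0.18 for Rgs9. In the 7 spike-in arrays it was between 0.09 and 0.54 for Gpr6 and between 0.19 and 0.45 for Rgs9. The highest value of Drd2 was with Drd1, at 0.42. Over the 15 pairs of the 6 members above the filter the median r was 0.20, and 12 pairs were above 0.

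The same pattern can be read from single arrays. KO replicate 3 was the highest array for 4 of the 8 members (Ppp1r1b, Arpp21, Scn4b and Bcl11b), KO replicate 2 for Drd2 and Gpr6, KO replicate 1 for Drd1 and WT replicate 1 for Rgs9. KO replicate 4 was not among the 3 highest arrays for any member. Among WT arrays, replicates 1 and 2 had the higher signals of Arpp21, Scn4b and Bcl11b, whereas Drd1 was lowest of all 10 arrays in WT replicate 1.

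**Figure D3:**
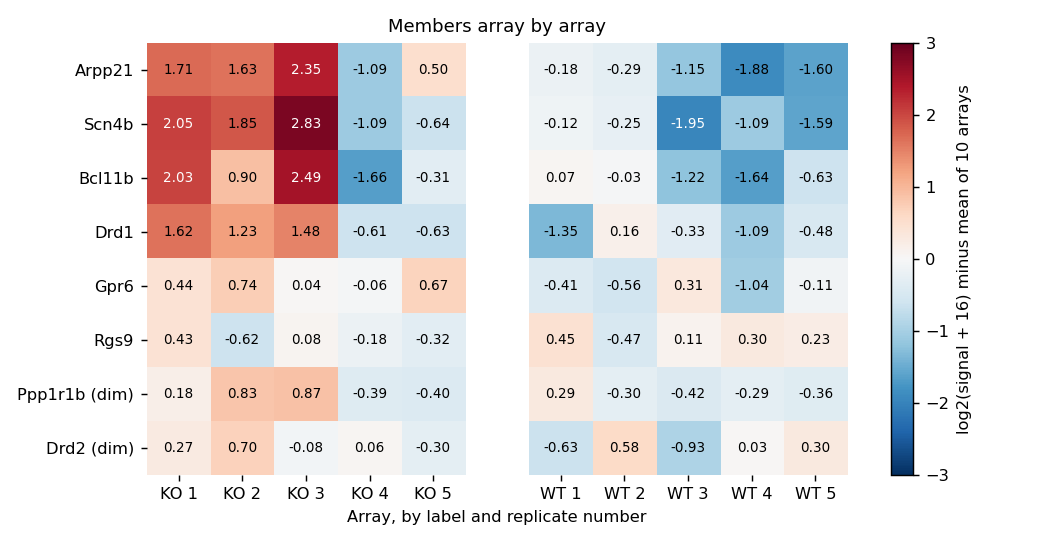
Each member's log2(signal + 16) minus its mean over the 10 arrays (colour and number), with arrays labelled KO on the left and WT on the right; rows marked dim are below the filter. Arpp21, Scn4b, Bcl11b and Drd1 are above their means in KO replicates 1, 2 and 3, up to 2.83 for Scn4b, and Drd1, Scn4b and Bcl11b are below them in KO replicates 4 and 5.

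**Figure D4:**
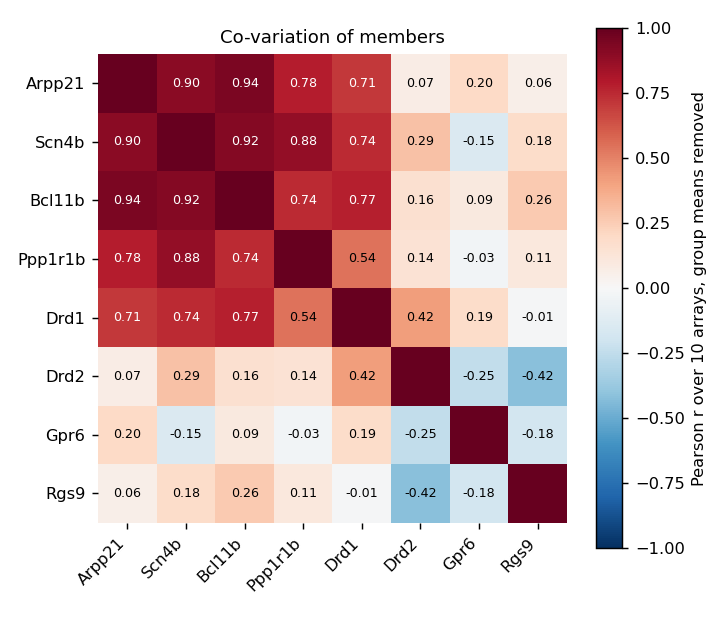
Pearson r between members over 10 arrays after each group's mean was removed (colour and number). Arpp21, Scn4b and Bcl11b form a block at 0.90 to 0.94, while Gpr6 and Rgs9 have values between -0.42 and 0.26 with every other member.

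Some other measures varied with the members. Against the mean of the standardized values of the 6 members, group means removed, the mean log2 value of the cortical pyramidal neuron markers had r = 0.60 over 10 arrays and that of the astrocyte markers r = -0.60. Of the cortical markers 5 of 6 had a probe set and 3 of these (Slc17a7, Tbr1 and Neurod6) were dim. Their summed signal was between 108 and 488 on KO arrays and between 131 and 325 on WT arrays, highest on KO replicate 3. The astrocyte markers, 5 of 5, summed to between 11464 and 16667 on KO arrays and between 14285 and 18953 on WT arrays. The septal neuron markers, 5 of 5 with a probe set and Zic2 dim, had r = -0.02, with sums of 4425 to 6201 on KO arrays and 3776 to 7301 on WT arrays. The microglia markers, 4 of 4 with a probe set and P2ry12 and Aif1 dim, had r = -0.45. Their sums were 4727 to 6857 on KO arrays and 6587 to 10303 on WT arrays. The genes listed as striatal interneuron markers, 6 of 6 with Chat, Slc5a7 and Nkx2-1 dim, had r = 0.53. Their sums did not overlap between the groups (542 to 765 on KO arrays, 785 to 979.6 on WT arrays), as was so for 4.68% of single genes tested. The oligodendrocyte markers, 5 of 6 with a probe set and Mog dim, had r = 0.34. Their sums were 10347 to 15992 on KO arrays and 11382 to 17000.5 on WT arrays. With the log2 of the summed signal in place of the mean log2 value, r was -0.12 for the oligodendrocyte and 0.13 for the septal markers. It kept its sign for the other lists. The choroid plexus markers had r = 0.28 and the preoptic and hypothalamic markers r = -0.09. The poly-A control signal had r = -0.24 with the members. The part of these measures in the members' differences was not tested.

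Among 10910 tested genes that are not members, those whose signal followed the members' mean standardized value most closely were ranked by Pearson r over the 10 arrays, group means removed. Penk, the enkephalin precursor, came first at 0.95, followed by Pde1b, a calmodulin-dependent phosphodiesterase, at 0.93 and the unconventional myosin gene Myo5b at 0.93. Then came Arf3 at 0.91, Ralgapb at 0.91, 2700046A07Rik and the striatum-enriched small GTPase gene Rasd2 at 0.90 each, Fancm at 0.90, Tshz3 at 0.89 and Neto1 at 0.89. Over all ranked genes the median was -0.04, and the middle 90% lay between -0.54 and 0.55. Penk signals were 1003, 447, 979, 245 and 327 in KO replicates 1 to 5, against 392.3, 287, 259, 156 and 268 in WT replicates 1 to 5. KO replicates 1 and 3 were highest and WT replicate 4 lowest. Being alike in this sense did not mean differing by label: Myo5b was at a log2 difference of 0.08 (SE 0.33) and Arf3 at -0.36 (SE 0.13).

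Beyond the members, 60 other genes of striatal projection neurons and of dopamine signalling were examined in 5 lists, of which 52 had a probe set and 42 passed the filter on dim genes. Of these 42, 1 was higher in mice labelled KO and 0 were lower by limma with a Benjamini-Hochberg adjusted p below 0.05, where 0.0183% of all genes were higher. Over all genes 8, or 0.0733%, passed in either direction and 1883 had an unadjusted p below 0.05. In the same fit over 45037 probe sets 0 (0%) passed and 5696 had an unadjusted p below 0.05. The median log2 difference of the 42 was 0.15, against -0.01 over all genes tested, and 29 of the 42 were above 0, where 49.1% of all genes tested were. The lists were chosen with earlier results of these data known, so this is a description. The gene that passed was Tac1, the precursor of substance P and a marker of D1-type neurons. Its signals were 1714, 1770, 2035, 765 and 1463 in KO replicates 1 to 5, against 629, 497, 619, 532 and 449 in WT replicates 1 to 5 (log2 difference 1.42, SE 0.22, limma adjusted p = 0.031). The second Tac1 probe set had the opposite sign, and with the mean over both the difference was 0.62 (limma adjusted p = 0.173). All 5 KO arrays lay above all 5 WT arrays, KO replicate 4 being the lowest of the 5 as it was for Arpp21, Scn4b and Bcl11b. Tac1 did not pass without KO replicate 2, 3 or 5 or WT replicate 1, 2 or 4 (limma adjusted p between 0.053 and 0.111), nor with quantile normalization (0.082), without an intensity trend (0.075) or in the 7 spike-in arrays (0.181).

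In the list of D1-type genes 6 of 8 were tested. Slc35d3, a transporter-like protein involved in D1 receptor trafficking in mice, was at 0.88 (SE 0.33, limma adjusted p = 0.180), with 4 of 5 KO arrays above every WT array. Beside Tac1 and Slc35d3, the other 4 tested lay between -0.26 (Ebf1) and 0.23 (Isl1), and Pdyn and Chrm4 were dim. Of 4 D2-type genes 2 were tested, Penk at 0.93 (SE 0.34, limma adjusted p = 0.179) and Plxdc1 at -0.18 (SE 0.25, limma adjusted p = 0.747), which was 0.10 with each array centred on its median, -0.53 in the 7 spike-in arrays and between -0.31 and -0.03 with 1 array left out.

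The list of dopamine and cyclic AMP signalling genes had 19 of 22 tested, 15 of them above 0, with a median log2 difference of 0.15. Pde10a, the phosphodiesterase that breaks down cyclic nucleotides in medium spiny neurons, had signals of 529, 1038, 938, 277 and 506 in KO replicates 1 to 5, against 206, 221, 306, 94.8 and 155 in WT replicates 1 to 5. Of the KO arrays 4 lay above every WT array and KO replicate 4 did not. Its log2 difference was 1.605 (SE 0.33), with a limma adjusted p of 0.056, and 1 of its 5 probe sets had the opposite sign. With the mean over the 5 it was 0.54 (limma adjusted p = 0.239). Prkar2b, a regulatory subunit of protein kinase A, was at 0.45 (SE 0.16, limma adjusted p = 0.158), while Prkaca, encoding a catalytic subunit of that kinase, had the lowest difference of the list at -0.49 (SE 0.19, limma adjusted p = 0.201). Rasgrp2 and Ptpn5 were at -0.35 and -0.34. The adenylyl cyclase of striatal neurons, Adcy5, was at 0.25 and the G protein subunit gene Gnal at 0.15.

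Of 13 striatal transcription factor genes 11 were tested and 0 passed limma's threshold (0 of them had an unadjusted p below 0.05). Rarb and Dlx6 were dim and not tested. Rarb was at 0.74 (SE 0.26), with 16.8 to 45.7 on KO arrays and 3.65 to 19.1 on WT arrays. Of its KO arrays 4 lay above every WT array. Dlx6 was at 0.02 (SE 0.38). Foxp2 was at 0.42 (SE 0.24, limma adjusted p = 0.376) although 2 of its 6 probe sets had the opposite sign, and Meis2 at 0.85 (SE 0.54, limma adjusted p = 0.436). The Meis2 difference was 0.49 without KO replicate 1, 0.54 without KO replicate 3, 0.52 without WT replicate 3 and 0.48 with the mean over its probe sets. Meis2 signals were 1402, 541, 1248, 151 and 216 in KO replicates 1 to 5, against 352, 538, 96.7, 201 and 383 in WT replicates 1 to 5. KO replicates 1, 2 and 3 were again the 3 highest arrays. Of 13 other dopamine and adenosine receptor and dopamine handling genes 4 were tested. The dopamine-synthesizing enzyme gene Ddc stood at -0.41 (SE 0.22, limma adjusted p = 0.346). The monoamine oxidase gene Maob stood at 0.35 (SE 0.20, limma adjusted p = 0.395), and at 0.18 without WT replicate 2. The receptor genes Drd3, Drd4 and Adora3 were dim, as were Slc6a3 and Slc18a2. Slc6a3 was at -0.78 (SE 0.24), with 12.1 to 35.6 on KO arrays and 39.3 to 61.0 on WT arrays. Its groups did not overlap, as in 3.22% of all probe sets, and it was not tested.

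**Figure D5:**
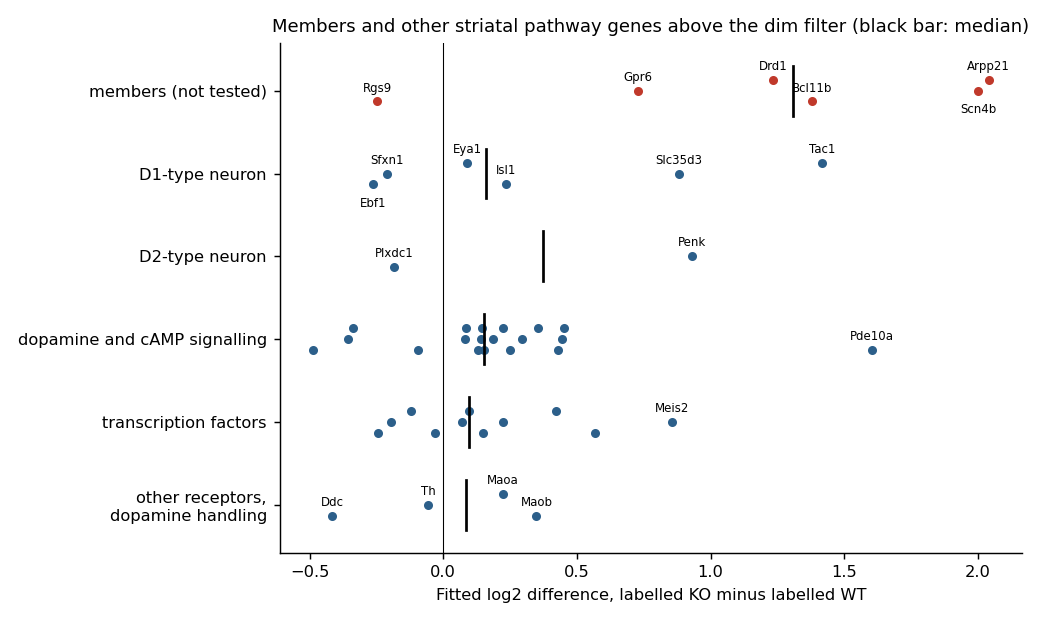
Fitted log2 difference (horizontal axis, labelled KO minus labelled WT, n = 5 arrays a group) of the 6 members above the filter (red) and of 42 other genes in 5 lists (blue), 1 point a gene; black bars are medians. The members' median is 1.31 and those of the lists lie between 0.08 and 0.37, with Pde10a and Tac1 farthest to the right among the other genes.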

How the data were processed

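The authors deposited probe set intensities on a linear scale, 1 array a mouse, and per the submitters' processing notes the software was GCOS, of a version and settings not given in the sources used here. Each array had the same trimmed mean of 200.002 in the deposited table, without the lowest and highest 2% of probe sets, so arrays had been scaled as a whole. Depth has no counterpart on arrays, and the number of arrays limits precision.

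Probe sets were named from the platform annotation, which can be old: 34945 named 1 gene, 932 several and 9160 none. Each of 18193 genes was represented by its probe set with the highest mean log2(intensity + 16), and the dimmest 40% were left out, which left 10916. The test was limma (version 3.58.1, R 4.3.3; eBayes with an intensity trend), labelled KO minus labelled WT, with Benjamini-Hochberg adjustment over all genes tested. A fit over all 45037 probe sets that are not controls gave each member probe set its difference, and dim genes were taken from the fit over all genes. Python 3.11.15 and numpy 2.4.6 gave correlations and counts. The fit was tested on simulated data with 5 arrays a group and 200 changed genes of 10916. It recovered 32% of log2 changes of 0.75, 58% of those of 1, 86% of those of 1.5 and 98% of those of 2. Of its calls 3.5% were false. The simulated noise was drawn separately for each gene and array, so variation that genes share on an array was not part of it. Each replicate is 1 mouse, and its dissection, amplification and array enter the spread that p-values measure. No pair of arrays held the same value at more than 0.00443% of probe sets.

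The members and gene lists were chosen with earlier results of these data known. Named genes are the members, Ptges, in each list the genes past the threshold and the 2 with the smallest p, and the 10 genes most like the members. Ebf1, Isl1, Adcy5, Gnal, Prkaca, Rasgrp2, Ptpn5, Mef2c, Itpka, Rarb, Dlx6 and Slc6a3 were named after their values were seen. Alternatives were a pseudocount of 1 or 64, quantile normalization, centring on the median, 2 other dimness filters, averaging the probe sets of each gene, weighting arrays, a fit without trend, the replicate number or spike-in signal as a block, the 7 arrays with spike-in signal alone, and leaving out each array.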

Additional observations from a re-analysis of the deposited data

Results flagged for a closer look

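Within groups of 5 arrays, the gap between an extreme array and its neighbour was compared with the range of the group for the 18 member probe sets and 10 named pathway genes, on the log2(signal + 16) scale. In 56 such groups 4 arrays stood out, where chance gives about 2.8. Bcl11b probe set 1450339_a_at, a dim one, was at 74.0 in KO replicate 3, with the other KO arrays between 15.7 and 21.1. KO replicate 3 is also the array with the highest choroid plexus marker signal and the highest signal of 4 members. Drd1 probe set 1456051_at was at 9.30 in WT replicate 1, with the other WT arrays between 40.7 and 61.8, and the brighter Drd1 probe set was lowest on that array too. Ppp1r1b was at 14.0 in WT replicate 1, with the other WT arrays between 2.33 and 4.16, all of them dim. Maob was at 129 in WT replicate 2, with the other WT arrays between 228 and 263, and its difference of 0.35 was 0.18 without that array.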

How the results depend on the processing

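The direction of Drd1, Drd2, Gpr6, Ppp1r1b, Arpp21, Scn4b and Bcl11b was the same under all 22 other settings, and Rgs9 turned to 0.033 with median centring, as Plxdc1 did to 0.10. The members' median difference of 1.31 was lowest when probe sets of a gene were averaged (0.79) and lay between 0.98 and 1.75 when 1 array was left out. Their median r of 0.20 was 0.25 with quantile normalization, 0.22 with median centring and 0.45 in the 7 spike-in arrays, and between 0.18 and 0.41 with 1 array left out. The count of 8 genes called by limma was 24 with a pseudocount of 64, 0 with quantile normalization (1640 at unadjusted p below 0.05), 1053 with median centring, 3 with no filter, 65 with the dimmest 60% left out, 1 when probe sets were averaged, 112 with array weights, 0 without a trend (1883 at unadjusted p below 0.05), 16 with the spike-in block, 0 in the 7 spike-in arrays (1500 at unadjusted p below 0.05) and between 0 and 39 with 1 array left out. The count of 1 pathway gene was 6 with median centring, 2 with the dimmest 60% left out or with array weights, 0 with quantile normalization, the mean of probe sets, no trend or the 7 spike-in arrays, and between 0 and 2 with 1 array left out. The count of 0 probe sets was 550 with median centring, which moves the median difference of all genes tested to 0.27. With the replicate number as a block 2 genes were called, the pathway gene among them being Pde10a (adjusted p = 0.027) in place of Tac1 (0.051). Same-numbered arrays did not deviate together over all genes tested (r between -0.13 and 0.07). The members' mean standardized value, group means removed, was however highest in replicate 1 and lowest in replicate 4 of both groups. With the block the SE was lower for every member with a probe set (Arpp21 0.30 against 0.51) and for Pde10a (0.18 against 0.33). It was higher for some pathway genes, among them Slc35d3 (0.36 against 0.33). The labels do not say whether the numbers pair mice, and these values cannot settle it. The cause of these changes was not tested, beyond what a setting does by construction. Dim probe sets (Drd2, Ppp1r1b) limit what can be said of those members.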

Other observations

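Genes listed as markers of striatal interneurons (Chat, Slc5a7, Nkx2-1, Pvalb, Npy and Nos1) did not share the direction by label of most members. With group means removed, their mean log2 value still had r = 0.53 with the members over 10 arrays. Of the 6, all were at lower mean log2 values in mice labelled KO, where 49.1% of all genes tested were higher. Chat, Slc5a7 and Nkx2-1 were dim, and 3 passed the filter on dim genes. Of these, 0 passed limma's adjusted threshold, with 1, Nos1, at an unadjusted p below 0.05 (log2 difference -0.47, SE 0.16, limma adjusted p = 0.157). Their summed signal was between 542 and 765 on KO arrays and between 785 and 979.6 on WT arrays, so the groups did not overlap. Of single genes tested, 4.68% did not overlap either, and this sum was picked out after the sums of several marker lists were seen. Neither the difference between these genes and the members nor their being markers of striatal interneurons in this tissue was tested.

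Several pathway genes followed the members across arrays, with differences by label of unequal size. Adcy5 had r = 0.84 with the members' mean standardized value and ranked 33 of 10910 at a log2 difference of 0.25 (SE 0.17), Meis2 had r = 0.83 and ranked 42 at 0.85 (SE 0.54), and Ppp3ca, a catalytic subunit gene of calcineurin, had r = 0.80 and ranked 70 at a log2 difference of 0.08 (SE 0.28). Ikzf2, encoding the transcription factor Helios, ran the other way at r = -0.67 and rank 10742. These genes were picked out after their values were seen, and the coefficients rest on 10 arrays.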
